A study of Mus musculus with 16 samples.

Results

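The interleukin-1 (IL-1) family genes described here were the 10 ligands, receptors and antagonists listed by name, Il1a, Il1b, Il18, Il33, Il1rn, Il18bp, Il1r1, Il1rap, Il1rl1 and Il1r2, and all 10 were found among the 33289 genes of the table. They were named for their function in the family, and were chosen with earlier results of these data known. Of the 10, 9 passed the filter on low values, as did 17349 genes in all, and Il1rl1 did not. RNA came from PBS-perfused mouse hemi-brains taken 8 h after the mice had received lipopolysaccharide (LPS), the bacterial cell wall molecule that Toll-like receptor 4 recognises, or saline by injection. The 4 groups, with 4 libraries each, were LPS brains labelled Lcn2-/-, wild type LPS brains, saline brains labelled Lcn2-/- and wild type saline brains, all from C57BL/6J mice aged 3 to 4 months. The product of Lcn2, lipocalin-2, is a secreted protein that withholds iron from bacteria by binding their siderophores. The labels do not describe the deleted allele, and whole hemi-brain RNA mixes neurons, glia, vessels and blood-derived cells, so fewer cells of a type and less RNA per cell cannot be told apart.

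IL-1 alpha and IL-1 beta signal through IL-1 receptor type 1 together with the accessory protein IL-1RAP, which also serves the IL-33 receptor ST2. The IL-1 receptor antagonist occupies the type 1 receptor without signalling, IL-1 receptor type 2 binds the ligands as a decoy, and IL-18 binding protein captures IL-18. In the brain, microglia and border macrophages are known sources of IL-1 during inflammation, endothelium is a main site of the type 1 receptor, and oligodendrocytes and astrocytes hold much of the IL-33. IL-1 beta and IL-18 are made as precursors that proteases cleave, so RNA levels do not give the active protein.

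Levels are in RPKM, reads per kilobase of gene scaled to library size, and folds and differences are on the log2 scale of the deposited values. A gene is called where the adjusted p of limma, over all genes tested, was under 0.05. The table holds no read counts, so depth and counting error are unknown. Lcn2 RNA was 34.1 to 40.2 RPKM in LPS brains labelled Lcn2-/-, against 66.7 to 82.7 RPKM in wild type LPS brains. After saline it was 0.132 to 0.351 RPKM under the Lcn2-/- label and 0.065 to 0.204 RPKM in wild type, so the genotype is given throughout as a label. Saline replicate 4 labelled Lcn2-/- stood apart: 17112 genes reached 0.5 RPKM there, against 16372 to 16497 in the other 15 libraries. The lower part of the distribution also moved with treatment, with a 25th percentile of log2 RPKM of -5.78 to -4.58 in LPS libraries and -4.12 to -2.73 in saline libraries, so levels near the bottom of a library carry this shift as well. Brain markers were present in every library, with a summed RPKM of at least 905 for 8 neuronal, 313 for 8 astrocyte and 860 for 8 oligodendrocyte genes.

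After LPS, the brain held more RNA of the antagonists Il1rn and Il18bp, of the receptors Il1r1 and Il1r2, and of Il1b under either genotype label. Il18, the most abundant ligand together with Il33, was not called in any comparison. In brains labelled Lcn2-/-, 7 of the 9 tested members were called higher after LPS and 0 lower, where 20.7% of all tested genes were called higher and 27.7% lower (48.3% either way). In wild type, 5 were called higher and 1 lower, where 11.4% of all tested genes were called higher and 13.9% lower (25.3% either way). The LPS and saline libraries did not overlap for 7 of 9 members under the Lcn2-/- label (42.4% of all tested genes) and for 6 of 9 in wild type (32.4%). The members' median log2 difference was 1.57 under the Lcn2-/- label, against -0.03 over all tested genes, and 0.80 in wild type, against -0.03 over all tested genes. Il1a, Il1b, Il1rn and Il1r2 reached 0.5 RPKM in LPS libraries only, so they entered the test through the group where they were high, and these counts are a description. For Il1a those were the 4 LPS libraries labelled Lcn2-/- alone, which holds for the comparison of labels after LPS and for the interaction as well.

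**Figure D1:**
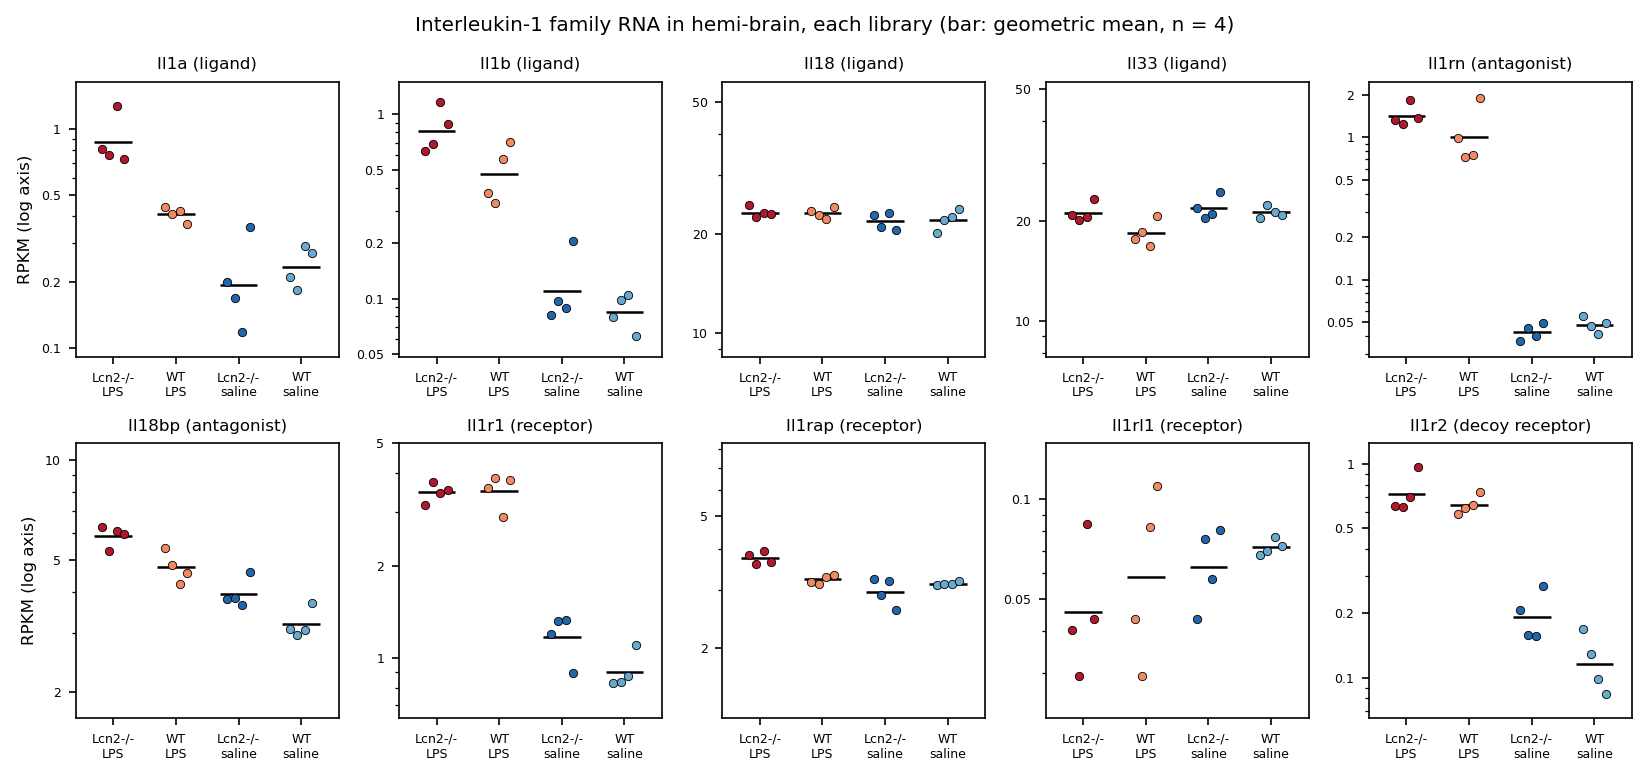
RPKM (log axis, a separate range per panel) of the 10 members in each library of the 4 groups, with a bar at the geometric mean of 4 libraries. Il1rn lies between 0.726 and 1.9 RPKM in LPS libraries and between 0.0373 and 0.0557 RPKM in saline libraries, while Il18 lies between 20.1 and 24.3 RPKM in all 16.

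In order of level, Il18 (23.1 RPKM, geometric mean) and Il33 (21.2) led in LPS brains labelled Lcn2-/-, followed by Il18bp (5.89), Il1rap (3.75), Il1r1 (3.47), Il1rn (1.42), Il1a (0.871), Il1b (0.817), Il1r2 (0.721) and Il1rl1 (0.0457). The ranges of the libraries overlapped between neighbours in that order for Il18 and Il33, for Il1rap and Il1r1, and among Il1a, Il1b and Il1r2, and narrowly for Il1rn and Il1a (1.24 to 1.84 and 0.726 to 1.27 RPKM). Other neighbours did not overlap. In wild type saline brains the order began with the same 5 genes, and Il1rn came last, with a geometric mean of 0.0483 RPKM.

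Il1a encodes IL-1 alpha, an alarmin released from damaged cells. Its level was 0.815, 0.763, 1.27 and 0.726 RPKM in LPS brains labelled Lcn2-/-, and 0.438, 0.41, 0.424 and 0.367 RPKM in wild type LPS brains. After saline it was 0.200, 0.168, 0.118 and 0.357 RPKM under the Lcn2-/- label, and 0.21, 0.183, 0.292 and 0.27 RPKM in wild type. Under either label every LPS library was above every saline library of the same label, and replicate 3 was the highest of the LPS brains labelled Lcn2-/-. Il1a rose 4.49-fold under the Lcn2-/- label (log2 difference 2.17 ± 0.289 SE, limma adjusted p = 1.93e-05). In wild type the log2 difference was 0.80 ± 0.289 (95% interval 0.19 to 1.42, limma adjusted p = 0.0531), which was not called. The value of 0.80 was called when saline replicate 4, saline replicate 3 or LPS replicate 3 labelled Lcn2-/- was left out of the shared error (adjusted p 0.0118 to 0.0483, the lowest without saline replicate 4), and 5 of 8 other settings also gave a call, with differences of 0.60 to 0.80 (0.0141 to 0.0491).

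Il1b encodes IL-1 beta, the secreted pyrogenic form that caspase-1 cleaves. It was measured at 0.629, 0.69, 1.16 and 0.885 RPKM in LPS brains labelled Lcn2-/-, and at 0.375, 0.33, 0.57 and 0.707 RPKM in wild type LPS brains. Saline values were 0.0814, 0.0974, 0.0885 and 0.206 RPKM under the Lcn2-/- label, and 0.0796, 0.0987, 0.104 and 0.0628 RPKM in wild type. The LPS and saline libraries stood apart under both labels, and the highest saline value belonged to replicate 4 labelled Lcn2-/-, as it did for Il1a and Il1r2. Il1b rose 7.46-fold under the Lcn2-/- label (log2 difference 2.90 ± 0.34 SE, limma adjusted p = 5.06e-06). The rise in wild type was 5.59-fold (2.48 ± 0.34, limma adjusted p = 4.34e-05).

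The genes lie 54.6 kb apart on the minus strand of chromosome 2 (GRCm38, GENCODE vM21), Il1a at chr2:129299610-129309972 and Il1b at chr2:129364570-129371139. The 250 bases before each RefSeq start (GRCm38.p6, minus strand, 5′ to 3′) are shown because both ligands rose under the Lcn2-/- label and carry the same letters near the start, with the motif matches in capitals.
Il1a, chr2:129309973-129310222: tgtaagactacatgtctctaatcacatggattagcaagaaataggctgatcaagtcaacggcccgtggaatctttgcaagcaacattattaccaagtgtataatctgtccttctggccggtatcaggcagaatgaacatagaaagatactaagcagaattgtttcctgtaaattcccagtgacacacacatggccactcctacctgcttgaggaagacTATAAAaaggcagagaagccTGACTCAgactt
Il1b, chr2:129371140-129371389: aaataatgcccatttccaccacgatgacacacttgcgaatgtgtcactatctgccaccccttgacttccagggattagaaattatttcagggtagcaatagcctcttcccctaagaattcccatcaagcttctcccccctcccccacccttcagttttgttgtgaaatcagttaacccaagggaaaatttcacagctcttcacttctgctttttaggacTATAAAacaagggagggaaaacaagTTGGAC
The capitals mark TATAAA in both, 32 to 27 bases before the start of Il1a and 31 to 26 bases before that of Il1b. In Il1a they also mark TGACTCA, a match to the AP-1 letters TGANTCA, from -12 to -6. In Il1b they mark the beginning of a match to the C/EBP letters TTGNNCAA, which runs from -6 across the start to base 2. Of 32851 promoters of this length (250 bases before to 50 after the start, both strands), 13.6% hold TATAAA, 7.81% the AP-1 letters and 6.40% the C/EBP letters; TATAAA was added to the search after these sequences had been seen. The kappa B letters (GGGA, any 3 bases, TCC), in 4.59% of promoters, were found in none of the 15 windows of the 10 members. A match is a description of letters and not a binding site, and the absence of a fixed string does not show that a site is absent.

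Il18 encodes IL-18, which drives interferon gamma in lymphocytes, and Il33 encodes IL-33, a nuclear alarmin. Il18 was 24.3, 22.4, 23.0 and 22.9 RPKM in LPS brains labelled Lcn2-/-, 23.4, 22.8, 22.2 and 24.0 RPKM in wild type LPS brains, 22.8, 20.9, 23.0 and 20.5 RPKM in saline brains labelled Lcn2-/-, and 20.1, 22.0, 22.5 and 23.7 RPKM in wild type saline brains. All 4 groups overlapped. The log2 difference of LPS from saline was 0.09 under the Lcn2-/- label (95% interval -0.02 to 0.20) and 0.07 in wild type (-0.04 to 0.17), with limma adjusted p of 0.157 and 0.386. Il33 was 20.9, 20.1, 20.6 and 23.3 RPKM in LPS brains labelled Lcn2-/-, 17.7, 18.5, 16.8 and 20.7 RPKM in wild type LPS brains, 21.9, 20.4, 21 and 24.5 RPKM in saline brains labelled Lcn2-/-, and 20.5, 22.4, 21.3 and 20.9 RPKM in wild type saline brains. Of the wild type LPS libraries, 3 lay below every saline library and replicate 4 did not. In wild type Il33 fell by 0.21 on the log2 scale (SE 0.0668, limma adjusted p = 0.0294). Under the Lcn2-/- label the difference was -0.05 (95% interval -0.19 to 0.09, limma adjusted p = 0.567). The fall in wild type was no longer called when any of 5 wild type libraries was left out (LPS replicates 1, 2 and 3, saline replicates 2 and 3), with adjusted p of 0.0552 to 0.0945.

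Il1rn, which encodes the IL-1 receptor antagonist, had the largest LPS difference of the 9 tested members under both labels. Its level was 1.32, 1.24, 1.84 and 1.37 RPKM in LPS brains labelled Lcn2-/-, and 0.992, 0.726, 0.757 and 1.9 RPKM in wild type LPS brains. Saline brains had 0.0373, 0.0461, 0.0404 and 0.0495 RPKM under the Lcn2-/- label, and 0.0557, 0.0473, 0.0418 and 0.0495 RPKM in wild type. All LPS libraries lay above all saline libraries, and on the log2 scale the gap exceeded the range within any group. On the deposited scale Il1rn rose 33.1-fold under the Lcn2-/- label (log2 difference 5.05 ± 0.285 SE, limma adjusted p = 1.03e-09) and 20.9-fold in wild type (4.38 ± 0.285, limma adjusted p = 1.01e-08). In saline libraries, however, Il1rn lay between percentiles 2.14 and 22.5 of all genes, so the size of the fold depends on how the lowest values were set. On log2(RPKM + 0.5) the differences were 1.83 under the Lcn2-/- label and 1.48 in wild type. That scale also gave smaller values for Il1b (1.11 under the Lcn2-/- label and 0.75 in wild type), Il1a (0.97 and 0.30) and Il1r2 (0.81 and 0.89), with the same calls.

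The gene lies on chromosome 2 at chr2:24336853-24351494, on the plus strand, 8.03 Mb from Lcn2; Il1a and Il1b are 96.9 and 97.0 Mb from it. RefSeq gives 3 starts, and the 250 bases before the outermost (GRCm38.p6, plus strand, 5′ to 3′) are shown as those of the member with the largest difference.
Il1rn, chr2:24336610-24336859: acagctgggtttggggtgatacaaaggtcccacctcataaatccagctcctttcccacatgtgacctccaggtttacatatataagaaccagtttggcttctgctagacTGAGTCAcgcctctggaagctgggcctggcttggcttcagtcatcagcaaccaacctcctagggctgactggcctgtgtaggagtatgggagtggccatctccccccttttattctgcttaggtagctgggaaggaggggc
The capitals mark TGAGTCA, a match to the same AP-1 letters as in Il1a, here from -141 to -135. Gene-level values do not say which start was used, so the secreted and intracellular forms of the antagonist were not separated.

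Il18bp encodes the secreted protein that captures IL-18. Levels were 6.28, 5.29, 6.1 and 5.96 RPKM in LPS brains labelled Lcn2-/-, 5.41, 4.83, 4.23 and 4.57 RPKM in wild type LPS brains, 3.81, 3.82, 3.64 and 4.58 RPKM in saline brains labelled Lcn2-/-, and 3.08, 2.97, 3.07 and 3.7 RPKM in wild type saline brains. LPS libraries lay above the saline libraries of their own label, without overlap. Il18bp rose 1.49-fold under the Lcn2-/- label (0.58 ± 0.0916, limma adjusted p = 9.95e-05) and 1.48-fold in wild type (0.57 ± 0.0916, limma adjusted p = 0.000212).

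Set against their ligands within each library, the antagonists moved as follows, given as levels per length with no test. Il1rn stood at 1.74 times Il1b in LPS brains labelled Lcn2-/- (mean log2 ratio 0.80 ± 0.204 SD, n = 4) and at 2.14 times Il1b in wild type LPS brains (1.09 ± 0.475). After saline it stood at 0.393 times Il1b under the Lcn2-/- label (-1.35 ± 0.472) and at 0.571 times in wild type (-0.81 ± 0.455). Antagonist RNA was above Il1b RNA in each of the 8 LPS libraries and below it in each of the 8 saline libraries on the deposited scale. Both genes were low after saline, and on log2(RPKM + 0.5) the saline ratios were -0.18 under the Lcn2-/- label and -0.10 in wild type, and those of Il1rn to Il1a -0.38 and -0.43. Against Il1a the mean log2 ratio was 0.71 ± 0.157 in LPS brains labelled Lcn2-/- and 1.3 ± 0.73 in wild type LPS brains, and -2.17 ± 0.581 in saline brains labelled Lcn2-/- and -2.28 ± 0.427 in wild type saline brains. Replicate 4 was far above the other wild type LPS brains in this ratio, at 2.37. Il18bp remained well below Il18 in every library, at 0.255 times in LPS brains labelled Lcn2-/-, 0.205 times in wild type LPS brains, 0.181 times in saline brains labelled Lcn2-/- and 0.145 times in wild type saline brains.

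**Figure D2:**
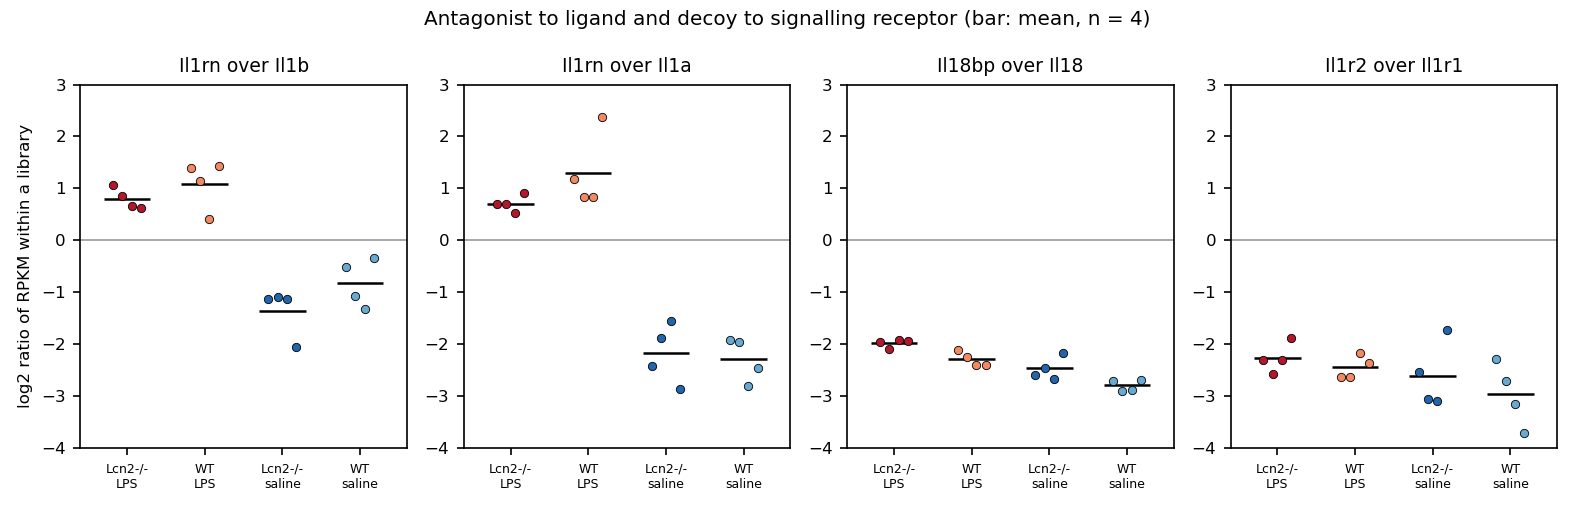
Log2 ratio of RPKM within each library for Il1rn over Il1b, Il1rn over Il1a, Il18bp over Il18 and Il1r2 over Il1r1, in the 4 groups, with a bar at the mean of 4 libraries. Both Il1rn ratios are above 0 in all 8 LPS libraries and below 0 in all 8 saline libraries, while the other ratios are below 0 throughout.

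Il1r1 encodes the signalling receptor for IL-1 alpha and IL-1 beta. It was measured at 3.15, 3.75, 3.46 and 3.53 RPKM in LPS brains labelled Lcn2-/-, and at 3.57, 3.86, 2.87 and 3.79 RPKM in wild type LPS brains. Saline values were 1.2, 1.32, 1.33 and 0.893 RPKM under the Lcn2-/- label and 0.826, 0.835, 0.872 and 1.1 RPKM in wild type. All LPS libraries lay above all saline libraries, and the LPS libraries of the labels overlapped. Il1r1 rose 2.96-fold under the Lcn2-/- label (1.57 ± 0.132, limma adjusted p = 1.33e-07) and 3.88-fold in wild type (1.96 ± 0.132, limma adjusted p = 1.54e-08). Summed RPKM of 10 endothelial markers, a cell type that carries this receptor, was 60.1 to 71.2 in LPS brains labelled Lcn2-/-, 67 to 73.8 in wild type LPS brains, 72.5 to 85.6 in saline brains labelled Lcn2-/- and 86.7 to 95.7 in wild type saline brains. The 10 markers did not move together: limma called 2 higher and 6 lower after LPS under the Lcn2-/- label, and 3 higher and 5 lower in wild type. The shares over all tested genes were 20.7% higher and 27.7% lower under the Lcn2-/- label, and 11.4% and 13.9% in wild type. Cdh5, the endothelial cadherin, rose by 1.99 under the Lcn2-/- label and by 1.21 in wild type, and Slco1a4, a transporter of brain vessels, fell by 4.45 and by 2.18.

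Il1rap, which encodes the accessory chain shared by the IL-1 and IL-33 receptors, was 3.83, 3.6, 3.93 and 3.65 RPKM in LPS brains labelled Lcn2-/-, 3.17, 3.14, 3.28 and 3.32 RPKM in wild type LPS brains, 3.23, 2.9, 3.19 and 2.61 RPKM in saline brains labelled Lcn2-/-, and 3.11, 3.14, 3.12 and 3.19 RPKM in wild type saline brains. The 4 LPS libraries labelled Lcn2-/- were the highest of all 16. Il1rap rose 1.26-fold under the Lcn2-/- label (0.33 ± 0.0605, limma adjusted p = 0.000322), while in wild type the difference was 0.04 (95% interval -0.09 to 0.17, limma adjusted p = 0.698). Of its exonic bases, 552 (4.86%) are shared with Gm20319 on the opposite strand, which was called higher after LPS under both labels (0.73 and 0.48, Lcn2-/- label and wild type, limma adjusted p = 0.00155 and 0.0392). The sources used here do not give whether counting used strand, so reads of these genes cannot be told apart there. The same holds for 222 bases (11.2%) of Il1a with Gm14023, 80 (2.64%) of Il18bp with Numa1 and 25 (1.31%) of Il1b with Il1bos.

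Il1rl1 encodes ST2, the receptor for IL-33. It ranged from 0.0294 to 0.0845 RPKM in LPS brains labelled Lcn2-/-, from 0.0294 to 0.11 RPKM in wild type LPS brains, from 0.0436 to 0.0807 RPKM in saline brains labelled Lcn2-/- and from 0.0678 to 0.0768 RPKM in wild type saline brains. All groups overlapped, and the gene lay between percentiles 10.2 and 38.6 of its library, where a difference would not be detectable with confidence. In a two-sided exact permutation test over the 4 comparisons the p ranged from 0.314 to 0.629 (adjusted p = 0.629 for each), where the smallest p that 4 against 4 allows is 0.0286.

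Il1r2 encodes the decoy receptor, which binds IL-1 but lacks a signalling domain. Its level was 0.637, 0.631, 0.698 and 0.966 RPKM in LPS brains labelled Lcn2-/-, and 0.583, 0.624, 0.645 and 0.744 RPKM in wild type LPS brains. After saline it was 0.208, 0.159, 0.157 and 0.27 RPKM under the Lcn2-/- label and 0.169, 0.129, 0.0992 and 0.084 RPKM in wild type. No LPS library overlapped a saline library. Il1r2 rose 3.73-fold under the Lcn2-/- label (1.90 ± 0.248, limma adjusted p = 1.53e-05) and 5.57-fold in wild type (2.48 ± 0.248, limma adjusted p = 1.39e-06). The decoy stayed below the signalling receptor in every library, at 0.208 times Il1r1 in LPS brains labelled Lcn2-/- (mean log2 ratio -2.26 ± 0.29 SD), 0.185 times in wild type LPS brains (-2.44 ± 0.227), 0.165 times in saline brains labelled Lcn2-/- (-2.60 ± 0.637) and 0.129 times in wild type saline brains (-2.96 ± 0.611). These ranges of the ratio overlapped.

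Il1r2 (chr1:40074079-40125231) and Il1r1 (chr1:40225080-40317257) open a cluster of 6 receptor genes on the plus strand of chromosome 1, which spans 478 kb and continues with Il1rl2, Il1rl1, Il18r1 and Il18rap. The 250 bases before the RefSeq start of Il1r2 (GRCm38.p6, plus strand, 5′ to 3′) are shown because it and its neighbour Il1r1 rose while Il1rl1, further along, did not pass the filter.
Il1r2, chr1:40085843-40086092: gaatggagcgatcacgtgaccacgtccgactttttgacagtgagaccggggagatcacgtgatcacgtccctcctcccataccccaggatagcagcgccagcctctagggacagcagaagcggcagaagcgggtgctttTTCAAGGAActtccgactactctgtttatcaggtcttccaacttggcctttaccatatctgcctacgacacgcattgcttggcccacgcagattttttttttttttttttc
The capitals mark TTCAAGGAA, a match to the STAT letters TTCNNNGAA from -111 to -103, which 8.30% of all promoters hold. Within the cluster, Il1rl2, Il1rl1, Il18r1 and Il18rap stayed under 0.5 RPKM in all 16 libraries.

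Immune cell markers moved with LPS as well. Summed RPKM of 12 neutrophil markers, of which 5 passed the filter, was 11.4 to 28.9 in LPS brains labelled Lcn2-/-, 11.3 to 17.9 in wild type LPS brains, 5.34 to 7.78 in saline brains labelled Lcn2-/- and 3.37 to 9.65 in wild type saline brains. Of those 5, limma called 3 higher after LPS under each label and 0 by label after LPS. Over all tested genes, 20.7% were called higher after LPS under the Lcn2-/- label, 11.4% in wild type, and 15.8% by label after LPS. In LPS brains labelled Lcn2-/- most of the sum was S100a8 (3.87 to 10.3 RPKM) and S100a9 (5.39 to 13.1 RPKM). Elane and Mpo, below the filter, were at most 0.0484 RPKM after LPS and reached 0.107 and 0.188 RPKM in saline brains labelled Lcn2-/-. Replicate 3 of the LPS brains labelled Lcn2-/- had the highest sum in its group and also the highest Il1a, Il1b and Il1rn, and replicate 4 of the wild type LPS brains had the highest sum in its group and also the highest Il1b, Il1rn and Il1r2, but the lowest Il1a. Ly6g, a defining neutrophil marker, was at most 0.115 RPKM in any library. Ccr2, which marks inflammatory monocytes, was below the filter and lower after LPS. It was 0.00988 to 0.0172 RPKM in LPS brains labelled Lcn2-/- and 0.0172 to 0.0227 RPKM in wild type LPS brains. In saline brains it was 0.0495 to 0.11 RPKM under the Lcn2-/- label and 0.0802 to 0.116 RPKM in wild type. Summed RPKM of 6 monocyte markers, of which 2 passed the filter, was 1.81 to 2.80 in LPS brains labelled Lcn2-/-, 1.72 to 2.14 in wild type LPS brains, 0.606 to 1.17 in saline brains labelled Lcn2-/- and 0.731 to 1.03 in wild type saline brains. Of those 2, limma called 1 higher after LPS under the Lcn2-/- label (20.7% of all tested genes) and 2 in wild type (11.4%). By label after LPS, 1 was called higher (7.04% of all tested genes) and 1 lower (8.74%). Summed RPKM of 10 microglial markers was 93.5 to 104 in LPS brains labelled Lcn2-/-, 90.7 to 102 in wild type LPS brains, 106 to 111 in saline brains labelled Lcn2-/- and 106 to 112 in wild type saline brains. Between the labels after LPS, 2 other marker sums stood apart. The sum of 6 erythroid and blood genes was 5.59 to 8.71 RPKM under the Lcn2-/- label and 3.76 to 5.37 RPKM in wild type. Of the 4 blood genes tested, only Hba-a1 was called, higher by 0.97 (limma adjusted p = 0.0476). Hba-a2, Hbb-bs and Hbb-bt were not called (limma adjusted p = 0.217, 0.137 and 0.113). The sum of 6 choroid plexus genes was 466 to 477 RPKM under the Lcn2-/- label and 418 to 458 RPKM in wild type. Most of the choroid plexus sum was Ttr, at 455 to 464 RPKM under the Lcn2-/- label and 408 to 446 RPKM in wild type. Of the 6 choroid plexus genes, limma called 1 higher and 1 lower by label after LPS. The lower was Kcne2 (-0.74, limma adjusted p = 0.037). Over all tested genes, 7.04% were called higher and 8.74% lower by label after LPS. The part of these cell types in the member differences was not tested.

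**Figure D3:**
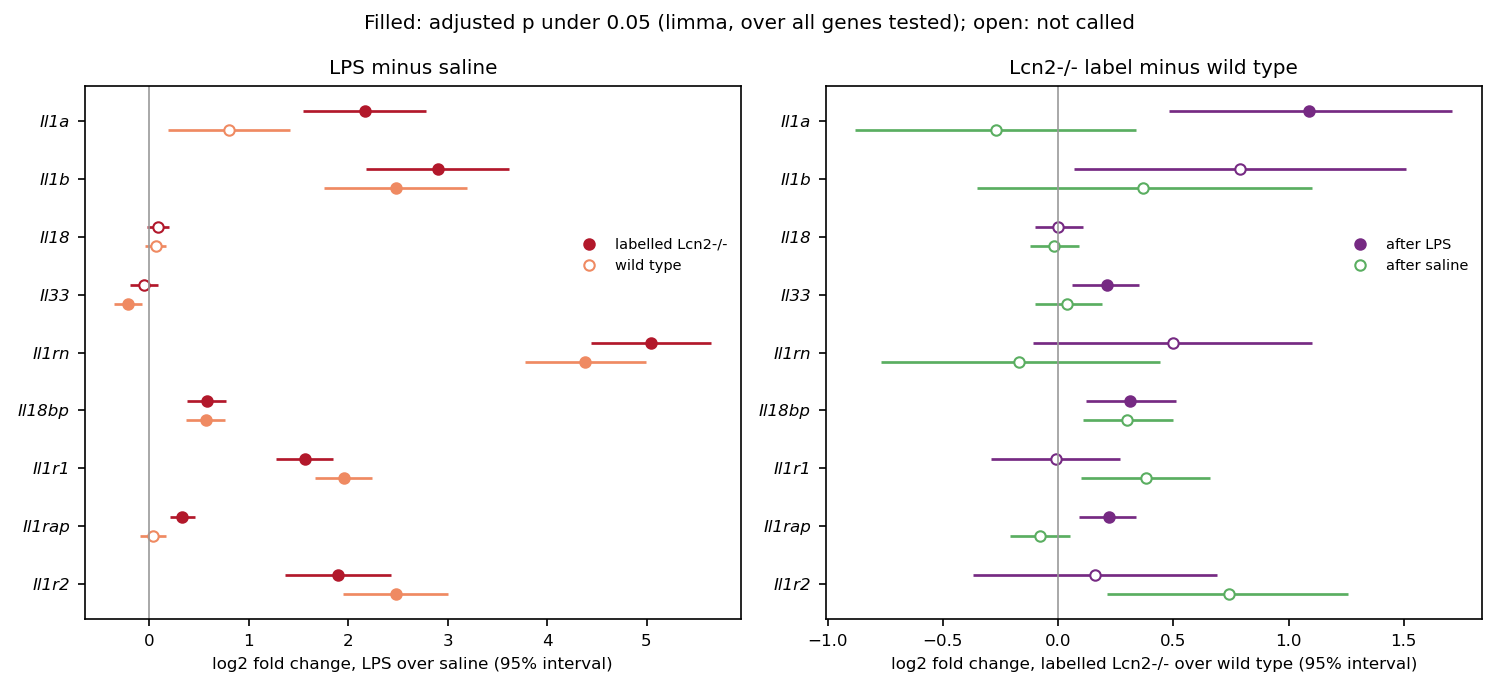
Log2 fold changes with 95% intervals for the 9 tested members, LPS over saline (left, for each genotype label) and labelled Lcn2-/- over wild type (right, after each injection); filled points have a limma adjusted p under 0.05. LPS differences of Il1b, Il1rn, Il18bp, Il1r1 and Il1r2 are filled for both labels, and no point of the comparison after saline is filled.

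Comparing the genotype labels after LPS asks whether the labelled loss of lipocalin-2 goes with another level of these genes during inflammation. Of the 9 tested members, Il1a, Il33, Il18bp and Il1rap were called higher under the Lcn2-/- label and 0 lower, where 7.04% of all tested genes were called higher and 8.74% lower (15.8% either way). The median log2 difference was 0.22 over the members and -0.01 over all tested genes. Il1a was 2.13-fold higher under the Lcn2-/- label (1.09 ± 0.289, limma adjusted p = 0.0196), with every one of the 4 libraries above every wild type LPS library. Since it passed the filter only through those 4 libraries, the count of 4 members is a description; with no filter on low values its adjusted p was 0.0271. Without LPS replicate 3 labelled Lcn2-/-, its highest library, the difference was 0.91 with an adjusted p of 0.0756. Il1rap was 1.16-fold higher (0.22 ± 0.0605, limma adjusted p = 0.0258), also without overlap; Il1a and Il1rap were the 2 members of 9 whose LPS groups stood apart by label, as 28.0% of all tested genes did.

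Il18bp was 1.24-fold higher under the Lcn2-/- label after LPS (0.31 ± 0.0916, limma adjusted p = 0.0304) and Il33 1.15-fold higher (0.21 ± 0.0668, limma adjusted p = 0.0473), both with overlapping libraries. The call of Il33 ended in 13 of 16 cases when single libraries were left out (adjusted p 0.054 to 0.142), and remained only without wild type LPS replicate 4 or saline replicates 2 or 4 labelled Lcn2-/-. It also ended with no filter (0.0694) and with no trend (0.0654). For Il18bp it ended without LPS replicates 1, 3 or 4 labelled Lcn2-/- or wild type LPS replicates 2, 3 or 4 (0.056 to 0.0965), and for Il1rap without LPS replicates 1 or 3 labelled Lcn2-/- or wild type LPS replicates 1 or 2 (0.0563 to 0.0838). For Il1b the difference was 0.79 (95% interval 0.07 to 1.51, limma adjusted p = 0.126), which was not called, and the highest wild type library (0.707 RPKM) exceeded 2 of the libraries labelled Lcn2-/-. On log2(RPKM + 0.5) the difference was 0.43, with an adjusted p of 0.0356, and with array weights 0.88, with 0.033. Il1rn differed by 0.50 (95% interval -0.11 to 1.10), Il1r2 by 0.16 (-0.37 to 0.69), Il18 by 0.00 (-0.10 to 0.11) and Il1r1 by -0.01 (-0.29 to 0.27). None of these 4 was called, and the intervals of Il1rn, Il1r2 and Il1r1 leave room for differences larger than those called for Il33 and Il1rap.

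After saline, 0 of the 9 members were called by genotype label, where limma called 8 of 17349 genes (0.0461%, of which 0.0346% higher and 0.0115% lower), and the groups overlapped for all 9 (5.19% of all tested genes stood apart). At an unadjusted p under 0.05 there were 3 members, Il1r2 (log2 difference 0.74 ± 0.248, limma adjusted p = 0.402), Il1r1 (0.38 ± 0.132, limma adjusted p = 0.405) and Il18bp (0.30 ± 0.0916, limma adjusted p = 0.367), all with the higher mean under the Lcn2-/- label. Over the whole table, 1897 of the 17349 tested genes were at an unadjusted limma p under 0.05. Il18bp thus had a difference of 0.31 between labels after LPS and of 0.30 after saline, and its interaction was 0.01 (limma adjusted p = 0.967).

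Whether the LPS difference itself depended on the label was tested by the interaction. It was called for 2 of 9 members, Il1a and Il1rap, both positive, where 3.90% of all tested genes had a positive and 4.92% a negative call (8.82% either way). Il1a had passed the filter only through the LPS libraries labelled Lcn2-/-, the group that is high in a positive interaction, so this count too is a description. For Il1a the LPS difference was 2.17 under the Lcn2-/- label and 0.80 in wild type, an interaction of 1.36 ± 0.409 (95% interval 0.49 to 2.23, limma adjusted p = 0.0499). This stood at the edge of the threshold: leaving out any of 15 libraries gave 1.12 to 1.48 with adjusted p of 0.0509 to 0.107, while without saline replicate 4 labelled Lcn2-/- it was 1.65 with an adjusted p of 0.00643. With no filter on low values the adjusted p was 0.0769, and on log2(RPKM + 0.5) the interaction was 0.66, still called. For Il1rap the LPS difference was 0.33 under the Lcn2-/- label and 0.04 in wild type, an interaction of 0.29 ± 0.0855 (95% interval 0.11 to 0.48, limma adjusted p = 0.0445). That call ended in 13 of 16 cases when single libraries were left out (adjusted p 0.0544 to 0.0923) and with no filter (0.086). It remained without saline replicates 1, 3 or 4 labelled Lcn2-/-; without replicate 4 the value was 0.23 with an adjusted p of 0.0327.

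For the receptors Il1r1 and Il1r2 the estimates ran the other way, with smaller LPS differences under the Lcn2-/- label. The interaction was -0.39 ± 0.187 for Il1r1 (limma adjusted p = 0.184) and -0.58 ± 0.35 for Il1r2 (limma adjusted p = 0.289), and neither was called. Without saline replicate 4 labelled Lcn2-/-, which had the lowest Il1r1 of its group, the interaction of Il1r1 was -0.52 with an adjusted p of 0.0365. Leaving that library out kept the 7 members called for LPS under the Lcn2-/- label, with log2 differences of 2.46 for Il1a, 3.20 for Il1b, 5.11 for Il1rn, 0.65 for Il18bp, 1.44 for Il1r1, 0.27 for Il1rap and 2.06 for Il1r2. The interactions of Il1b (0.42), Il1rn (0.66), Il33 (0.16) and Il18 (0.02) were not called, with limma adjusted p of 0.594, 0.292, 0.271 and 0.863.

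The genes whose profile over the 16 libraries was most like that of a member were found by the root mean square (RMS) difference of log2 values, each gene centred on its own mean. Nearest to Il1a were Samsn1 (RMS 0.306), Ccl17 (0.312) and Flnc (0.343). Il1b was nearest to Oas2 (0.344), an interferon-induced gene, Rnf125 (0.396) and AW112010 (0.412), and Il1rn to Gbp2 (0.394), Timp1 (0.406) and Irf7 (0.413). Scara5 (0.248), Pla1a (0.337) and Fcgr2b (0.351) came nearest to Il1r2, and Txnip (0.162), Ucp2 (0.189) and Adamts14 (0.194) to Il1r1. The nearest to Il18bp was Rgcc (0.111), followed by Aloxe3 (0.118) and Socs2 (0.129). Il18, Il33 and Il1rap varied little, as did their nearest genes, Paxbp1 (0.0472), Sgpl1 (0.0788) and Ctnnbl1 (0.0503). The 3 genes nearest to Il1rap, Ctnnbl1, Tlk2 and Rbm39, had their highest geometric mean in LPS brains labelled Lcn2-/-, as Il1rap did. Ctnnbl1 was 7.28 RPKM there, against 6.19 RPKM in wild type LPS brains, and 6.03 and 6.12 RPKM in saline brains labelled Lcn2-/- and wild type. Scara5, for example, had a geometric mean of 1.0 RPKM in LPS brains labelled Lcn2-/-, 0.959 RPKM in wild type LPS brains, 0.297 RPKM in saline brains labelled Lcn2-/- and 0.215 RPKM in wild type saline brains, against 0.721, 0.646, 0.193 and 0.116 RPKM for Il1r2 in the same order.

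Of the other IL-1 family ligands and receptors, 10 of 11 listed were in the table and 2 passed the filter. Sigirr, an inhibitory receptor of the family, was 0.359 to 0.498 RPKM in LPS brains labelled Lcn2-/-, 0.334 to 0.479 RPKM in wild type LPS brains, 0.846 to 1.02 RPKM in saline brains labelled Lcn2-/- and 0.746 to 0.934 RPKM in wild type saline brains. It fell by 1.08 on the log2 scale under the Lcn2-/- label (SE 0.142, limma adjusted p = 1.58e-05) and by 1.14 in wild type (SE 0.142, limma adjusted p = 1.56e-05), with LPS and saline libraries apart. Sigirr reached 0.5 RPKM in saline libraries only, and Il1r2 in LPS libraries only. Each thus entered the test through the group where it was high. As a description, among the receptors of the family that passed the filter, an inhibitory one was lower after LPS while the decoy Il1r2 and the signalling Il1r1 were higher. Il1rapl1, which acts at neuronal synapses, was not called (-0.03 under the Lcn2-/- label and 0.18 in wild type, limma adjusted p = 0.827 and 0.161).

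Genes of cytokine processing and release, such as inflammasome parts, had 9 of 17 listed members tested. Under the Lcn2-/- label 5 rose and 1 fell after LPS, and in wild type 4 rose and 1 fell, with a median log2 difference of 0.33 in each. Of all tested genes, 20.7% were called higher and 27.7% lower under the Lcn2-/- label, and 11.4% and 13.9% in wild type. Casp4 was the 1 gene of the 9 that reached 0.5 RPKM in LPS libraries only. Casp4, whose protein binds LPS in the cytosol, rose most, to 3.39 RPKM in LPS brains labelled Lcn2-/- against 0.172 RPKM in saline brains of that label (4.30 ± 0.201, limma adjusted p = 9.92e-11), and to 1.44 RPKM in wild type LPS brains against 0.179 RPKM in wild type saline brains (3.00 ± 0.201, limma adjusted p = 1.35e-08). Its interaction was 1.3 ± 0.284 (limma adjusted p = 0.0153). Pycard, the inflammasome adaptor, rose by 0.82 under the Lcn2-/- label and by 0.83 in wild type (limma adjusted p = 0.000278 and 0.000441), and Gsdmd, which encodes the pore former gasdermin D, by 0.74 and 0.62 (0.00141 and 0.00847). Casp8 rose by 0.97 under the Lcn2-/- label (limma adjusted p = 0.000221), and in wild type its difference of 0.33 was not called (0.179). P2rx7, the ATP-gated channel that triggers IL-1 release in macrophages, fell by 0.78 under the Lcn2-/- label and by 0.64 in wild type (limma adjusted p = 0.000243 and 0.00226). Casp1, which encodes the enzyme that cleaves IL-1 beta and IL-18, was not called, with differences of 0.07 under the Lcn2-/- label and -0.07 in wild type (limma adjusted p = 0.741 and 0.838).

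In receptor-proximal signalling, all 24 listed genes were tested. After LPS 5 rose and 5 fell under the Lcn2-/- label, where 20.7% of all tested genes were called higher and 27.7% lower (48.3% either way). In wild type 6 rose and 1 fell, where 11.4% were called higher and 13.9% lower (25.3% either way). The share called either way was near that of all genes, while the calls in wild type leaned to risers. The median was 0.01 in each. Of the 24, 2 reached 0.5 RPKM in LPS libraries only, Irak3 and Map3k8. They entered the test through the group where they were high, so the counts of risers are a description. The risers were led by Irak3, an inhibitory kinase of the pathway (2.79 ± 0.213 under the Lcn2-/- label and 2.19 ± 0.213 in wild type, limma adjusted p = 3.89e-08 and 9.92e-07). Map3k8, an upstream kinase of the ERK pathway, rose by 2.45 and 1.94 (limma adjusted p = 5.97e-10 and 1.71e-08, Lcn2-/- label and wild type). Myd88, the adaptor that the IL-1 receptors share with the LPS receptor TLR4, rose by 1.51 and 1.0 (1.99e-10 and 4.35e-08), and Irak2 by 1.21 and 0.78 (1.82e-07 and 3.33e-05). Ube2n, which supplies ubiquitin chains to this pathway, was not called (0.03 and 0.12). Between the labels after LPS, 3 of the 24 were called higher and 4 lower under the Lcn2-/- label. Over all tested genes, 7.04% were called higher and 8.74% lower there. The interaction was called positive for Myd88 (0.50 ± 0.105, limma adjusted p = 0.0126) and negative for 3 genes named after their values were seen, Chuk (-0.29 ± 0.0706), Peli3 (-0.38 ± 0.1) and Tollip (-0.15 ± 0.0389), with limma adjusted p of 0.0222, 0.032 and 0.0316. Among all tested genes, 3.90% had a positive and 4.92% a negative interaction call.

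Genes known as IL-1 targets in other cells, many of which LPS also induces directly, were called higher in 17 of 17 tested cases under the Lcn2-/- label and in 16 of 17 in wild type, of 20 listed, where 20.7% and 11.4% of all tested genes were, with a median of 2.30 and 1.93. Of the 17, 6 reached 0.5 RPKM in LPS libraries only and so entered the test through the group where they were high, and 3 listed genes were removed by the filter, among them Csf2 (at most 0.0664 RPKM after LPS), so these counts describe the genes that passed. Csf3, which encodes the neutrophil growth factor G-CSF, was 23.4 to 31.6 RPKM in LPS brains labelled Lcn2-/-, 8.11 to 8.96 RPKM in wild type LPS brains, 0.0537 to 0.0754 RPKM in saline brains labelled Lcn2-/- and 0.0404 to 0.0604 RPKM in wild type saline brains. The groups of LPS libraries were apart by label, and its interaction was 1.18 ± 0.206 (limma adjusted p = 0.00454). Cxcl1 and Cxcl2, neutrophil chemokines, rose by 7.45 and 7.65 under the Lcn2-/- label, and by 6.26 and 5.10 in wild type (largest limma adjusted p = 1.29e-08). Ccl2, a monocyte chemokine, rose by 6.83 under the Lcn2-/- label and by 4.15 in wild type, with an interaction of 2.68 ± 0.299 (limma adjusted p = 0.000231), and Cxcl2 had one of 2.55 ± 0.48 (0.00712). The interaction of Cxcl1, 1.2 ± 0.462, was not called (limma adjusted p = 0.109). Mmp3, a matrix protease, rose by 6.27 under the Lcn2-/- label and by 5.53 in wild type (limma adjusted p = 1.57e-08 and 1.11e-07), without a called interaction (0.74 ± 0.628). After LPS, 13 of the 17 were called higher under the Lcn2-/- label than in wild type and 0 lower, against 7.04% and 8.74% of all tested genes, and 9 had a called positive interaction and 0 a negative one, against 3.90% and 4.92%. On log2(RPKM + 0.5) the differences were smaller with the same calls, 5.59 under the Lcn2-/- label and 4.05 in wild type for Csf3, 5.55 and 4.08 for Cxcl1, 4.40 and 2.18 for Cxcl2, 2.53 and 1.51 for Casp4, 1.67 and 1.25 for Irak3, and -0.61 and -0.62 for Sigirr. Nfkb1 was the 1 target not called in wild type, at 0.12 (limma adjusted p = 0.383).

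**Figure D4:**
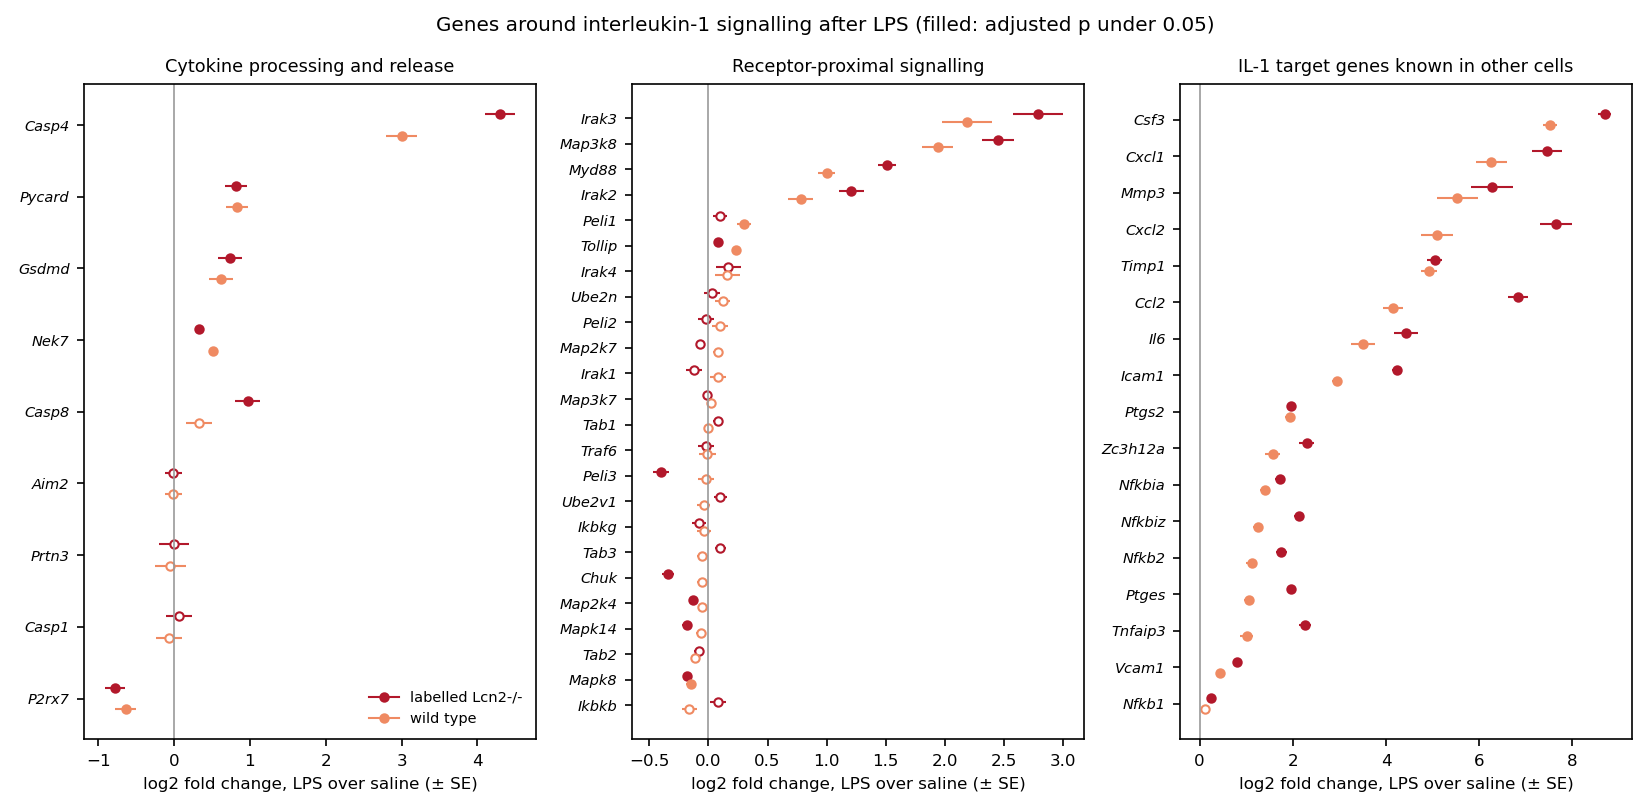
Log2 fold change of LPS over saline (± SE) for the tested genes of cytokine processing, receptor-proximal signalling and IL-1 targets known in other cells, for the Lcn2-/- label (dark) and wild type (light); filled points have a limma adjusted p under 0.05. Most signalling genes lie near 0, with Irak3, Map3k8, Myd88 and Irak2 higher, while 17 of 17 targets are filled under the Lcn2-/- label and 16 of 17 in wild type.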

How the data were processed

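Per the labels' protocols, total RNA was purified on columns with DNase I from sonicated hemi-brains. The authors deposited log2 RPKM values after conditional quantile normalization, per the file name, and the submitters' processing notes name the build mm10; the sources used here give no aligner, counter or strand setting. Of 33289 gene IDs, 32695 (98.2%) matched a symbol in GENCODE vM21. Groups came from the genotype and injection labels. The labels describe separate samples but no further pairing, and a p-value reflects only how far such samples spread. The series' design text gives 3 to 4 replicates per combination, and 4 were present in each.

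All 16 libraries entered the same limma fit of group means on the log2 values (limma 3.58.1, R 4.3.3; variances moderated with a mean trend). Genes entered with a log2 RPKM of at least -1 (0.5 RPKM) in at least 3 libraries, which removed 15940. The 5 contrasts were LPS against saline under each label, label after each injection, and the interaction, two-sided, with Benjamini-Hochberg adjustment over 17349 genes. Il1rl1, below the filter, was compared by exact permutation. Pathway genes named were, per list and LPS contrast, the 4 called genes with the largest change and the uncalled gene with the highest mean; likeness used the 3 nearest tested genes. Promoter sequences were RefSeq's for GRCm38.p6, matched by symbol for 10 of 10 members, and 6 motifs plus TATAAA were searched on both strands. The members, lists and rules were chosen with earlier results of these data known. The fit was tested on simulated data. Alternatives covered the filter, a pseudocount, median centring, quantile normalization, fitting only the groups compared, no trend, array weights and leaving out each library.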

Additional observations from a re-analysis of the deposited data

Results flagged for a closer look

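Il18bp in wild type saline brains had a library far from the rest of its group: replicate 4 was at a log2 RPKM of 1.89 (3.7 RPKM), while the others lay between 2.97 and 3.08 RPKM. It was the only such case among 40 groups of 4 libraries (10 members in 4 groups), and chance flags about 1 in 20 groups. The LPS difference of Il1a was larger under the Lcn2-/- label than in wild type, by an interaction of 1.36 on the log2 scale, and that of Il1rap by 0.29. Both passed the test of the difference itself (limma adjusted p = 0.0499 and 0.0445) and both lost the call when most single libraries were left out.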

How the results depend on the processing

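Of 1924 values of members and named genes under the alternatives, 1849 stayed on their side of the threshold. Another 61 lost the call, 14 gained it and 0 called values changed sign. The 1849 include 32 estimates that were uncalled throughout and changed sign. Without the filter on low values, 13790 genes were called for LPS in wild type (2310 higher and 11480 lower, against 4389 in all with the filter), 17808 for LPS under the Lcn2-/- label (8386 with it), 3 for label after saline (8) and 905 for the interaction (1530), of which 0 were members. Fitting only the groups compared called 3 genes for label after saline and 4393 for label after LPS (2739 with all groups). Array weights called 34 for label after saline, 5295 for label after LPS and 3030 for the interaction. A stricter filter, a log2 RPKM of 0 in at least 4 libraries, removed members from testing and left 4 called for LPS under the Lcn2-/- label and 1 for the interaction. On log2(RPKM + 0.5) the mean log2 ratio of Il1rn to Il1b was 0.54 in LPS brains labelled Lcn2-/-, -0.18 in saline brains labelled Lcn2-/- and -0.10 in wild type saline brains. Il1rn to Il1a was 0.48, -0.38 and -0.43 in those groups. Il18bp to Il18 was -1.89 in LPS brains labelled Lcn2-/- and -2.61 in wild type saline brains, and Il1r2 to Il1r1 was -1.69 and -1.80 in LPS brains labelled Lcn2-/- and wild type and -1.27 and -1.18 in saline brains in that order. A pseudocount pulls ratios of low genes towards 0 by construction; otherwise the cause was not tested.

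Leaving out each library in turn called 3610 to 6018 genes and 5 to 7 members for LPS in wild type, 7307 to 8452 genes and 7 members for LPS under the Lcn2-/- label, 3 to 13 genes and 0 members for label after saline, 1511 to 5169 genes and 0 to 4 members for label after LPS, and 740 to 2270 genes and 0 to 3 members for the interaction. No paired analysis was possible because the sample titles carry no number shared between groups. Depth is unknown, which limits what can be said of genes near the bottom of a library, Il1rl1 and, after saline, Il1rn above all.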

Other observations

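Il18rap, which encodes the accessory chain of the IL-18 receptor, stayed below the filter and was singled out after its values were seen. It was 0.427, 0.368, 0.415 and 0.368 RPKM in LPS brains labelled Lcn2-/-, 0.207, 0.199, 0.116 and 0.21 RPKM in wild type LPS brains, 0.0316, 0.0266, 0.0484 and 0.0596 RPKM in saline brains labelled Lcn2-/-, and 0.0473, 0.0484, 0.0461 and 0.0418 RPKM in wild type saline brains. The LPS libraries lay above all saline libraries and were apart by label. In the fit without the filter on low values, the log2 difference of LPS from saline was 3.32 ± 0.301 SE under the Lcn2-/- label and 1.96 ± 0.301 in wild type (limma adjusted p = 2.56e-07 and 9.32e-05). The labels differed by 1.15 ± 0.301 after LPS (limma adjusted p = 0.0293), and the interaction of 1.36 ± 0.425 was not called (0.0957). Its neighbour Il18r1, the ligand-binding chain of the same receptor, had a geometric mean of 0.0273 RPKM in LPS brains labelled Lcn2-/-, 0.0253 RPKM in wild type LPS brains, 0.0642 RPKM in saline brains labelled Lcn2-/- and 0.0516 RPKM in wild type saline brains.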
